A study of Mus musculus with 10 samples.

Results

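Cytosolic ribosomal protein genes of the large and the small subunit were followed in gastrocnemius muscle of diet-induced obese (DIO) mice that received an anti-miR-22 antisense oligonucleotide (ASO) or saline. The genes were chosen by symbol alone, as Rpl or Rps followed by a number, with Rplp0, Rplp1, Rplp2 and Rpsa added and the Rps6k kinases and pseudogenes left out. This rule matched 84 of the 21160 genes in the table, 51 of the large subunit and 33 of the small subunit. The rule itself uses no measured levels, but the genes were chosen with earlier results of these data known.

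All mice were wild-type (WT) male C57BL/6J animals that were given the D12492i high fat diet from 9 weeks of age and had eaten it for 9 weeks before treatment, which went on with the diet. One group received the ASO (RES-010 in the labels, an unconjugated LNA mixmer) at 10 mg/kg under the skin once a week for 14 weeks, and the other (CTRL, titled VHL) received saline, so obesity and the diet were shared by both groups and no lean group was compared here. Gastrocnemius was taken at 30 weeks of age by the labels, although the stated periods add up to more, and polyadenylated RNA of 5 ASO and 5 CTRL muscles, numbered 1 to 5 in each group, was sequenced in stranded libraries. The question was how 14 weeks of miR-22 inhibition changes expression in the muscle of obese mice.

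The libraries held 1606909 to 2116720 counts in CTRL and 2239186 to 2632560 with the ASO, so every ASO library was deeper than every CTRL library. Counts stand for read pairs on segments of up to 500 bp at the end of annotated 3′UTRs, and the counts of all segments of a gene were added up. A pair that lies on segments of more than one transcript is not counted, so a gene whose segments share all their bases has 0 counts whatever its expression. Of the markers of the labelled tissue, Acta1 and Ckm, the skeletal actin and the muscle creatine kinase, stood at 13016 CPM or above in every library (CPM is a gene's count relative to the library size as scaled by the TMM method). Tnnt3, Mylpf and Mb had 0 counts in all 10 libraries. The label of the ASO could not be checked against its target, because the table counts neither the miRNA nor its host transcript.

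Each cytosolic ribosome joins a small subunit, which holds the mRNA and decodes it, to a large subunit, which forms the peptide bond and holds the exit tunnel for the new chain. Messenger RNAs of nearly all ribosomal proteins begin with a run of pyrimidines, the 5′ terminal oligopyrimidine (5′ TOP) tract, through which mTORC1 and the binding protein Larp1 set their translation and stability as one group. In skeletal muscle, ribosome content is known to follow growth and loading, and striated muscle has a paralog of its own, Rpl3l, that takes the place of Rpl3 in mature fibers.

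The guide strand of miR-22 and the letters that pair with its seed are shown because they define what the ASO blocks. The mature sequence, from RefSeq, is printed with bases 2 to 8, the seed, in capitals.
mmu-miR-22-3p: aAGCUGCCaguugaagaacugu
The heptamer GGCAGCT, the reverse complement of that seed, was sought on the transcribed strand of the counted segments. It occurs in 683 of 7819 tested genes (8.74%) and in 2 of 47 tested ribosomal protein genes (4.26%), namely Rps12 and Rpl7l1. These shares are not matched for length, since 18 of the 47 genes were counted on under 100 bp, against 343 of the 7819. Both matches are printed from GRCm39 with the heptamer in capitals, Rps12 at chr10:23661269-23661295 and Rpl7l1 at chr17:47085127-47085153, each on the minus strand. Each lies in a segment that reaches past the 3′ end of the canonical transcript, by 15 bases for Rps12 and 3611 for Rpl7l1. The Rps12 match itself lies before that end, in the segment of a transcript annotated for nonsense-mediated decay. The segments of the protein-coding Rps12 transcripts, of 6 to 28 bp, do not hold it.
Rps12: gagccttaggGGCAGCTgaagccttta
Rpl7l1: tagacattctGGCAGCTagtatactgc
With the ASO, Rps12 rose by 0.80 on the log2 scale, whereas Rpl7l1 had a log2 fold change of 0.02 that did not pass the test, as given with their levels further on.

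Start-site windows are printed for 5 genes, 4 that rose and 1 that did not, to show how differently long the pyrimidine runs at annotated starts are. Each window has 30 bases from the RefSeq promoter table (GRCm38.p6), 10 before the start and the rest from the start on, with the longest run of C and T in capitals.
Rplp0 (chr5:115559457-115559486, plus strand): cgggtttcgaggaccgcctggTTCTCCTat
Rpl18 (chr7:45718061-45718090, plus strand): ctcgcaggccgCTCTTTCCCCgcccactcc
Rps12 (chr10:23787190-23787219, minus strand): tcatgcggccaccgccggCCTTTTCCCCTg
Rps26 (chr10:128626487-128626516, minus strand): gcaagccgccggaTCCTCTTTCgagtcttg
Rpl15 (chr14:18270967-18270996, minus strand): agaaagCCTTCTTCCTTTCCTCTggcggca
The run of Rpl15 was the longest of the 5, with 17 bases, against 11 in Rps12, 10 in Rpl18, 9 in Rps26 and 7 in Rplp0. Rpl15, counted only on its most distal segment, was the gene of these that did not pass the test. Runs were shorter in some other genes that rose, with 3 bases in Rpl24, 5 in Rpsa and 6 in Rpl37. Rpl5 and Rps4x, which did not pass the test, had 9 and 4. A run of at least 8 pyrimidines within 20 bases either side of the start, on the transcribed strand, lies in 16.45% of all 32851 promoters and in 32 of 75 promoters of ribosomal protein genes (42.7%). Among genes with a listed promoter, such a run was found for 14 of 25 that rose, for 6 of 12 that were tested and did not rise and for 11 of 26 that were not tested. These windows rest on annotated starts and say nothing about where transcription began in this muscle.

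Of the 51 large subunit genes, 29 had enough counts to be tested, 8 had too few, and 14 had 0 counts in all 10 libraries. Of the 33 small subunit genes, 18 were tested, 6 had too few counts, and 9 were at 0. In 21 of these 23 genes at 0, under 60 bp of the segments lay outside overlaps with other segments, the exceptions being Rplp2 and Rps28. Rpl3l belongs to this group, since its 2 annotated segments are the same 87 bp (chr17:24955031-24955117, GRCm39) and held no count, so the muscle-specific paralog could not be measured. Rpl10, Rpl19, Rpl27, Rpl30, Rpl38, Rpl41, Rpl8, Rpl9 and Rps27a likewise had no base of their own. The comparisons that follow cover 47 of 84 genes, and no test could be made of the other 37.

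Most measurable ribosomal protein mRNAs of both subunits were higher with the ASO. In the large subunit, 21 of 29 tested genes rose, 1 fell (Rpl3) and 7 did not pass the test, with a median log2 fold change of 0.74 (1.66-fold). For the small subunit, 12 of 18 rose and 6 did not pass, with a median of 0.78 (1.71-fold). None of the 18 fell by edgeR or DESeq2, and 0 had a lower level at an unadjusted edgeR p under 0.05. Over all 7819 genes tested, 11.7% were higher and 17.5% lower with the ASO by the same test, and the median log2 fold change was −0.03. In 19 large and 12 small subunit genes every ASO library stood above every CTRL library, which was so for 7.98% of all genes tested. No tested ribosomal protein gene had every ASO library below every CTRL library, which was so for 13.4% of all genes. In bulk tissue, more cells of a type and more RNA per cell cannot be told apart.

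**Figure D1:**
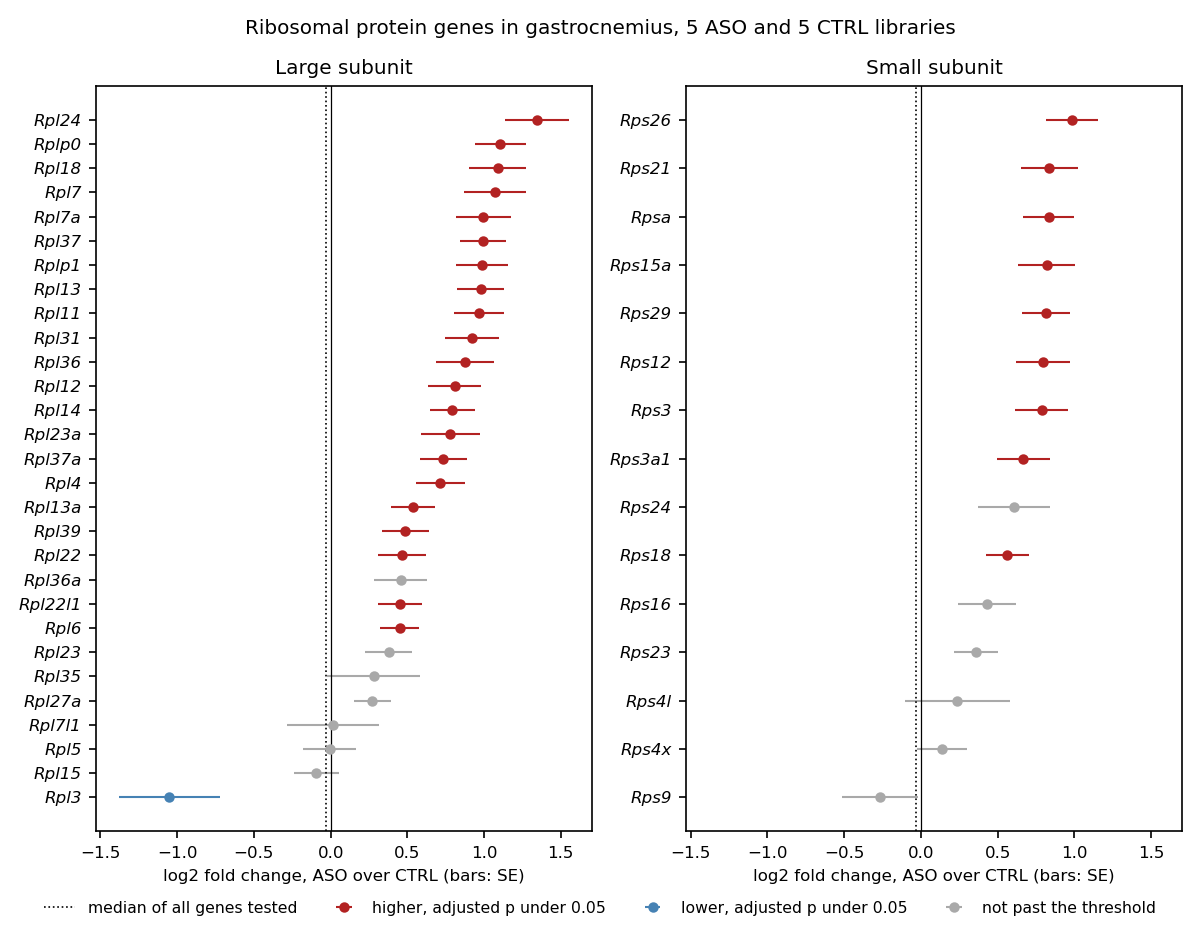
Log2 fold change (ASO over CTRL, x axis) of tested ribosomal protein genes with their SE, large subunit left and small subunit right; red genes rose, the blue gene fell and grey genes did not pass the test, and the dotted line is the median of all genes tested, −0.03. The red genes lie between 0.45 and 1.34, and Rpl3 stands alone at −1.05.

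As a share of all counts, the 84 genes took 1.20, 1.13, 1.06, 0.902 and 0.959% in the 5 CTRL libraries, a mean of 1.05 ± 0.122% (SD, n = 5). With the ASO they took 1.41, 1.29, 1.72, 1.70 and 1.59%, a mean of 1.54 ± 0.189% (SD, n = 5). The lowest ASO library, replicate 2, lay above the highest CTRL library, replicate 1. Both shares were higher, going from 0.571 ± 0.0611% to 0.824 ± 0.0901% for the large and from 0.480 ± 0.0611% to 0.718 ± 0.0991% for the small subunit. The ratio of large to small subunit counts averaged 1.19 ± 0.0289 over the CTRL libraries and 1.15 ± 0.0372 over the ASO libraries (SD, n = 5 each), and its ranges, 1.16 to 1.22 and 1.10 to 1.19, overlapped.

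**Figure D2:**
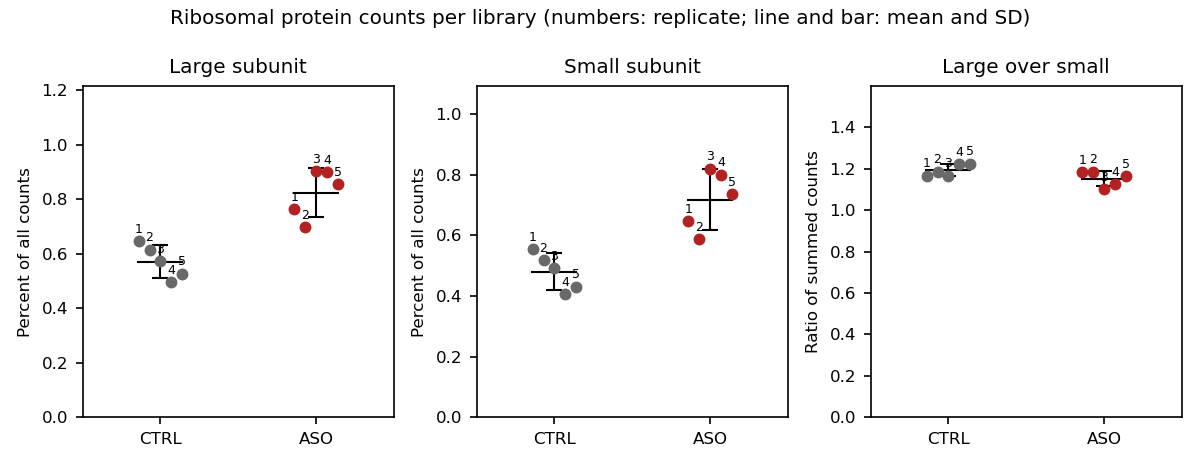
Percent of all counts on large subunit genes (left) and small subunit genes (middle), and their ratio (right), in each of 5 CTRL and 5 ASO libraries, numbered by replicate, with mean and SD. The groups are apart in both shares, with ASO replicate 2 closest to CTRL at 0.697% and 0.588%, and overlap in the ratio.

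The stalk of the large subunit, which recruits the GTPases that drive translation, was represented by Rplp0 and Rplp1. Rplp0, the base of the stalk, stood at 367, 355, 249, 253 and 309.8 CPM in CTRL and at 564, 524, 720.4, 706 and 790.3 CPM with the ASO. All ASO values lay above all CTRL values, by 2.15-fold (log2 fold change 1.11 ± 0.17 SE, edgeR adjusted p = 0.00072). Its partner Rplp1 rose from 165 ± 34.1 to 327 ± 52.5 CPM (SD, n = 5, edgeR adjusted p = 0.0015). Rpl12, which binds the rRNA under the stalk, rose by 0.81 ± 0.17 (log2, SE). The third stalk protein, Rplp2, had 0 counts although 235 bp of its segments are unique.

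Rpl24, which forms a bridge to the small subunit, had the largest fold change of the tested ribosomal protein genes. Its level was 21.1, 17.1, 18.1, 15.2 and 13.4 CPM in CTRL and 33.1, 32.0, 58.7, 41.4 and 51.5 CPM with the ASO. The lowest ASO library thus stood above the highest CTRL library (log2 fold change 1.34 ± 0.21 SE, edgeR adjusted p = 0.00082), but the gene was counted on only 44 bp. Rpl18 was at 159, 130.5, 142, 103 and 114 CPM in CTRL and at 244, 197, 380.1, 261 and 299 CPM with the ASO. These ranges did not overlap either (log2 fold change 1.09 ± 0.19 SE, edgeR adjusted p = 0.0014). Rpl7 rose by 1.07 ± 0.20 (log2, SE) and Rpl7a by 0.99 ± 0.18. Rpl37, Rpl13 and Rpl11 followed with log2 fold changes of 0.99, 0.98 and 0.97. Rpl37 had the smallest adjusted p of the ribosomal protein genes, 0.00069 by edgeR, with 57.1, 58.8, 48.0, 41.0 and 46.2 CPM in CTRL against 101, 82.2, 123, 94.4 and 102 CPM with the ASO.

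Proteins that line or surround the exit tunnel, named here without a list fixed for them, include Rpl4, Rpl23a, Rpl31, Rpl35 and Rpl39. Of these, Rpl35 did not pass the test (log2 fold change 0.28 ± 0.30 SE, edgeR adjusted p = 0.51). Rpl35 was counted on 33 bp and held only 7 to 23 counts per library, so a small change could not be detected there. Rpl4, which reaches into the tunnel, rose by 0.72 ± 0.16 (log2, SE), and Rpl23a, the docking site for factors that meet the new chain, by 0.78 ± 0.19. The ranges of Rpl23a overlapped, since ASO replicate 2 at 293 CPM lay below CTRL replicate 1 at 316 CPM. Rpl31, at the rim of the tunnel, rose by 0.92 ± 0.18, whereas Rpl39, inside it, rose by 0.49 ± 0.15 with overlapping groups and an edgeR adjusted p of 0.031. The call for Rpl39 was lost in 7 of the 10 fits that left out 1 library, that for Rpl22 and that for Rpl22l1 in 5 each, and that for Rpl6 in 3. The other 29 of the 33 genes that rose kept their call in all 10 of these fits.

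Not all large subunit genes passed the test. In the 5S particle, made of 5S rRNA with Rpl5 and Rpl11, Rpl11 rose by 0.97 ± 0.16 (log2, SE). Rpl5 had a log2 fold change of −0.01 ± 0.17 (SE, edgeR adjusted p = 0.98). All Rpl5 counts came from a 500-bp segment that ends 1600 bases before the canonical 3′ end. That segment shares 47 bp with a gene on the other strand. Rpl11 was counted on 256 bp ending 377 bases before that end, so the 2 genes were not counted alike. Rpl15, whose start has the 17-base pyrimidine run printed above, stood at 96.4, 105, 71.6, 98.9 and 104 CPM in CTRL and 92.5, 90.6, 68.0, 95.3 and 99.7 CPM with the ASO. Its groups overlapped throughout (log2 fold change −0.09 ± 0.15 SE, edgeR adjusted p = 0.67), and replicate 3 was the lowest library in both. All counts of Rpl15 came from a 500-bp segment at the canonical 3′ end. The segments of its transcripts that end 1137 to 1177 bases earlier had no base of their own and 0 counts. Those shorter forms were therefore not measured. Rpl23, Rpl27a, Rpl35, Rpl36a and Rpl7l1 did not pass the test either, with log2 fold changes of 0.38, 0.27, 0.28, 0.46 and 0.02.

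Rpl3, a protein at the peptidyl transferase center, was the ribosomal protein gene that fell. It had 58.0, 48.1, 134, 54.5 and 80.2 CPM in CTRL and 29.7, 41.3, 40.7, 52.2 and 16.4 CPM with the ASO. CTRL replicate 3 stood far above the other CTRL libraries, and the ranges overlapped, as CTRL replicate 2 lay below ASO replicate 4. The log2 fold change was −1.05 ± 0.33 (SE, edgeR adjusted p = 0.030), and leaving out CTRL replicate 3 brought it to −0.73 and ended the call. The call was also lost without CTRL replicate 5 and without ASO replicate 1, 3 or 5. All counts of Rpl3 came from a 500-bp segment of a transcript annotated for nonsense-mediated decay (NMD), in an earlier exon (chr15:79964618-79965117, minus strand, GRCm39) that ends 2630 bases before the canonical 3′ end. Segments at the canonical 3′ end of Rpl3 held no counts. The leading segment of 12 of the 47 tested genes, Rpl3 included, belongs to a transcript annotated for NMD. Of these 12, 9 rose (Rpl12, Rpl13a, Rpl14, Rpl22l1, Rpl37a, Rpl6, Rps12, Rps18 and Rpsa), and the share over all genes with such a segment was not computed. In these 9 the leading segment lay in the last exon or, for Rps12, ended 15 bases past the canonical 3′ end. The leading segment lay in an earlier exon in 2 tested genes, Rpl3, which fell, and Rpl27a, which did not pass the test. The median log2 fold change was 0.55 over these 12 genes and 0.79 over the 35 with a leading segment of a protein-coding transcript.

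**Figure D3:**
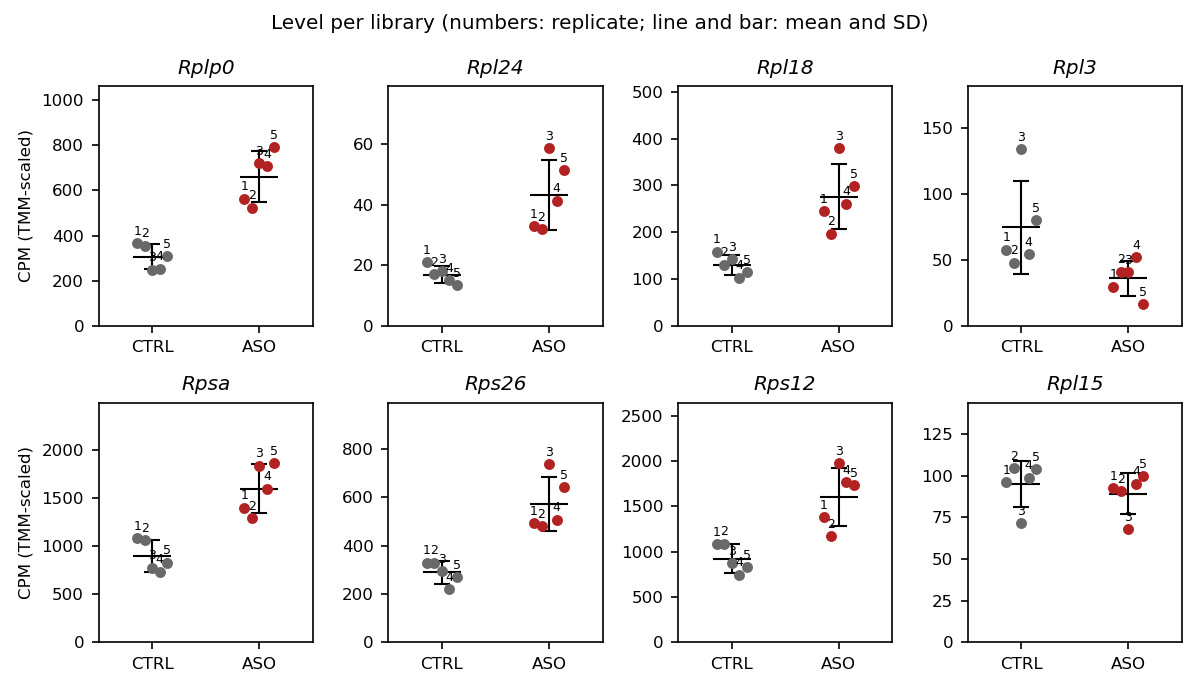
TMM-scaled CPM of 8 ribosomal protein genes in each of 5 CTRL and 5 ASO libraries, numbered by replicate, with mean and SD. Rplp0, Rpl24, Rpl18, Rpsa, Rps26 and Rps12 show separate groups, Rpl15 overlaps, and Rpl3 is lower with the ASO, with CTRL replicate 3 at 134 CPM.

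In the small subunit, Rps26, which touches the mRNA at the exit channel, had the largest fold change. It stood at 329.9, 330.4, 296, 219.6 and 270.2 CPM in CTRL and 492, 481, 737, 508 and 643 CPM with the ASO. Every ASO library lay above every CTRL library (log2 fold change 0.98 ± 0.17 SE, edgeR adjusted p = 0.0014). Rpsa, a protein near the neck of the subunit that is also known as the laminin receptor precursor, was at 1081, 1062, 776, 734 and 831 CPM in CTRL and at 1400.3, 1291, 1837, 1598 and 1863 CPM with the ASO. The groups were apart here too (log2 fold change 0.83 ± 0.17 SE, edgeR adjusted p = 0.0034). Rps12, on the head of the subunit and with the miR-22 seed match printed above, had 1084, 1088, 876, 745 and 828 CPM in CTRL and 1379, 1172, 1972, 1764 and 1735 CPM with the ASO. The lowest ASO value exceeded the highest CTRL value (log2 fold change 0.80 ± 0.18 SE, edgeR adjusted p = 0.0057).

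Rps21, Rps15a and Rps29 rose by 0.84, 0.82 and 0.81 on the log2 scale, with SEs of 0.16 to 0.18, and none of them had overlapping groups. Rps3, at the mRNA entry channel, rose by 0.79 ± 0.17 (log2, SE), Rps3a1 by 0.67 and Rps18, a head protein that contacts the large subunit, by 0.56. The 12 small subunit genes that rose did so by 0.56 to 0.98, and the 21 large subunit genes that rose did so by 0.45 to 1.34. The 6 that did not pass the test were Rps24, Rps16, Rps23, Rps4l, Rps4x and Rps9, at log2 fold changes of 0.61, 0.43, 0.36, 0.24, 0.13 and −0.27. Rps24, Rps4l and Rps9 held 24.2, 19.7 and 15 counts per library on average, with SEs of 0.23, 0.34 and 0.25. All Rps9 counts lay on a segment in an intron of the canonical transcript. The segments of Rps9 in the last exon held 0 counts, so transcripts that end there were not measured. Rps6, the substrate of the S6 kinases, held at most 14 counts in a library and was not tested.

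The libraries kept a similar order from gene to gene. Among the 33 genes that rose, ASO replicate 3 was the highest ASO library in 24 and replicate 5 in 9, whereas replicate 2 was the lowest in 28. In CTRL, replicate 1 was highest in 20 and replicate 2 in 12, with replicates 4 and 5 lowest in 14 and 15. The 33 calls are therefore not separate tests of the treatment.

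Per counted kilobase, the highest mean levels in the large subunit were those of Rpl23a (7008 CPM per kb), Rplp1 (6144) and Rpl18 (4720), and in the small subunit those of Rps26 (6729), Rps29 (6465) and Rps21 (6187). These 6 genes were counted on 40 to 91 bp, less than or little more than the read length of 60 bp, so that pairs from outside the segment add to the count and the scale favors short segments.

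What was counted differed between genes, and the values moved with it. The 18 tested genes counted on under 100 bp had 16 that rose (median log2 fold change 0.84), the 16 counted on 100 bp to under 500 bp had 11 (0.55), and the 13 counted on 500 bp or more had 6 that rose and 1 that fell (0.45). Over all tested genes the shares that rose were 23, 18.3 and 9.16% in these classes. In 41 genes the leading segment lay in the last exon of the canonical transcript, and 32 of them rose (median 0.79). Of the 6 others, Rps12 rose, Rpl3 fell, and Rpl27a, Rpl36a, Rpl7l1 and Rps9 did not pass the test. Over all genes, 13.7% of those with at least 90% of counts in the last exon or beyond rose, against 3.33% of those with less. When each gene was counted on its most distal segment alone, 10 of 22 large and 6 of 13 small subunit genes rose and none fell, beside 5.76% of all genes higher. When only genes with 1 counted segment were fitted, 12 large and 7 small subunit genes rose, beside 6.75% of all genes. The part of segment length and place in the changes was not tested.

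In 6 ribosomal protein genes, 2 segments had at least 10 counts per library on average, so their ratio could be followed inside each library, where depth and scaling drop out, a comparison added after seeing the data. The test was a two-sided exact permutation over all 252 labellings of the 10 libraries, with a smallest possible p of 0.00794 and adjustment over the 6 genes. Segment ratios were not computed for other genes, so no share over all genes can be set beside these. For Rps3, counts on the distal segment (chr7:99127103-99127602) fell relative to those on the proximal one (chr7:99128089-99128127), which ends 986 bases earlier, both in the last exon on the minus strand (GRCm39). The log2 ratio was −3.73, −2.96, −3.81, −3.09 and −3.94 in CTRL and −4.50, −4.39, −5.11, −5.24 and −4.54 with the ASO. The groups did not overlap (difference −1.25, exact permutation p = 0.00794, adjusted p = 0.0238). In the edgeR fit of single segments, the proximal one rose by 0.91 ± 0.19 (log2, SE, edgeR adjusted p = 0.0021) and the distal one had −0.41 ± 0.29 (edgeR adjusted p = 0.27).

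For Rpsa the ratio moved the other way. The distal segment (chr9:119960126-119960625, plus strand, last exon) stood to the proximal one (chr9:119959911-119960078, an earlier exon) at log2 ratios of −0.10, −0.11, −0.26, −0.04 and −0.29 in CTRL. With the ASO the ratios were 0.34, 0.28, 0.88, 0.42 and 0.48, all above CTRL (difference 0.64, exact permutation p = 0.00794, adjusted p = 0.0238). A difference by place was also seen over all genes tested. Their median log2 fold change was 0.04 with at least 90% of counts in the last exon or beyond and −0.36 with less. Both Rpsa segments rose in the edgeR fit, by 1.19 ± 0.19 and 0.53 ± 0.16 (log2, SE, edgeR adjusted p = 0.00046 and 0.016). For Rpl31 the difference was −1.64 (exact permutation p = 0.0159, adjusted p = 0.0317), with CTRL and ASO ranges that overlapped by 1 library on either side. Its distal segment (chr1:39410493-39410992, GRCm39) shares 420 bp with a gene on the other strand and held 6 to 19 counts per library, and no strand option is stated for the counting, so the 2 genes cannot be told apart there. The distal segments of Rps3 and Rpl31 decide the summed value in neither gene, as 94.9 and 96.9% of the counts lie on the leading proximal segment.

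**Figure D4:**
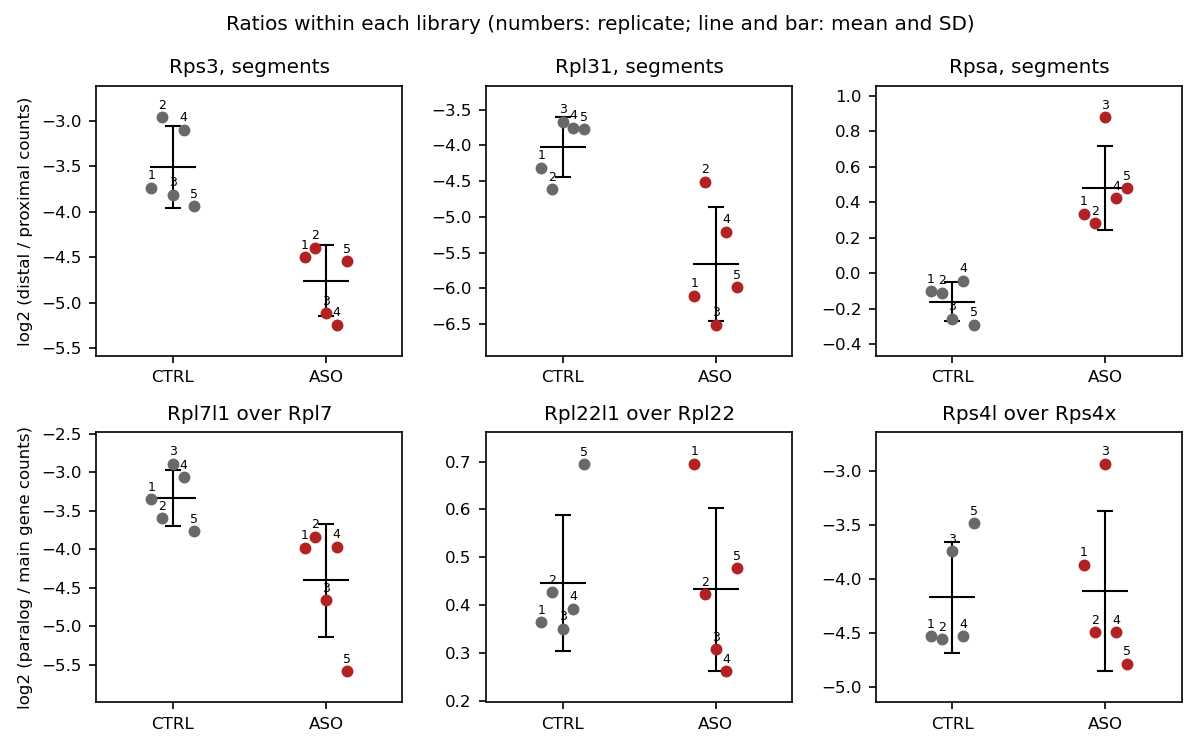
Log2 ratio of distal to proximal segment counts for Rps3, Rpl31 and Rpsa (top) and of a paralog's counts to those of its main gene (bottom), in each of 5 CTRL and 5 ASO libraries, numbered by replicate, with mean and SD (axes do not start at 0). The groups are apart for Rps3, Rpsa and Rpl7l1 over Rpl7, and overlap in the other panels.

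Paralogs of ribosomal proteins, which can replace the main form in some tissues, were compared with their main genes in the same way. Rpl7l1, a nucleolar relative of Rpl7 with a role in ribosome assembly, stood at 21.1, 17.6, 22.5, 17.6 and 8.91 CPM in CTRL and 20.6, 17.3, 17.6, 24.9 and 8.42 CPM with the ASO. Rpl7 stood at 217, 215, 169, 149 and 125 CPM and 329, 249.9, 452, 392 and 416 CPM. Rpl7 was thus higher in every ASO library, whereas the values of Rpl7l1 overlapped. The log2 ratio of Rpl7l1 to Rpl7 averaged −3.33 ± 0.363 over CTRL and −4.41 ± 0.735 over ASO libraries (SD, n = 5 each), a difference of −1.08 with no overlap (exact permutation p = 0.00794, adjusted p = 0.0159 over 2 pairs). Almost all Rpl7l1 counts, 96.8%, came from a segment that ends 3611 bases past the canonical 3′ end.

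Rpl22, known to repress its paralog Rpl22l1 in other tissues, and Rpl22l1 itself both rose, by 0.46 ± 0.16 and 0.45 ± 0.14 (log2, SE). Their log2 ratio averaged 0.45 ± 0.142 over CTRL and 0.43 ± 0.170 over ASO libraries (SD, n = 5 each), a difference of −0.01 (exact permutation p = 0.857). For Rps4l and Rps4x, the autosomal and the X-linked form, a pair added after the values were seen, the difference was 0.05 (exact permutation p = 0.929). The pairs Rpl3l and Rpl3, Rps27l and Rps27, Rpl10l and Rpl10, Rpl39l and Rpl39, and Rpl36al and Rpl36a could not be compared, since at least one gene of each was at or near 0 counts.

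Among ribosome genes whose symbols the rule does not match, Rack1, a scaffold protein on the head of the small subunit, rose. It had 81.0, 89.8, 53.9, 48.6 and 54.6 CPM in CTRL and 114, 94.0, 164, 142 and 159.6 CPM with the ASO. The groups did not overlap (log2 fold change 1.04 ± 0.21 SE, edgeR adjusted p = 0.0037). Fau, which encodes a ribosomal protein fused to a relative of ubiquitin, and Rpl36al were at 0.

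Other genes of the 5′ TOP class, mostly translation factors, gave 8 higher and 1 lower of 14 tested, with a median log2 fold change of 0.52 beside the 11.7 and 17.5% of all genes. Eef1g, a subunit of the elongation factor that reloads eEF1A, rose by 1.06 ± 0.15 (log2, SE), and the eIF3 subunits Eif3e and Eif3h rose by 0.98 ± 0.19 and 0.77 ± 0.15. Pabpc1, the poly(A) binding protein, rose by 0.90 ± 0.19. The gene that fell was Nap1l1, a histone chaperone, with a log2 fold change of −0.63 ± 0.17 (SE, edgeR adjusted p = 0.017), and this call was lost without ASO replicate 3 and without ASO replicate 5. Of the 8 genes that rose, 7 had at least 90% of their counts in the last exon or beyond, and Nap1l1 had 67.8%.

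Ribosome biogenesis genes gave 11 higher and 10 lower of 61 tested beside 11.7 and 17.5% of all genes, and their median log2 fold change was 0.14. Emg1, an 18S rRNA methyltransferase, rose by 0.93 ± 0.18 (log2, SE), the nucleolar GTPase Gnl3 by 0.94 ± 0.19, Noc2l, a relative of a nucleolar assembly factor, by 0.70 ± 0.14 and Rrn3, which links RNA polymerase I to rDNA promoters, by 0.69 ± 0.14. Nmd3, the export adaptor of the large subunit, had a log2 fold change of −1.61 ± 0.34 (SE), Nolc1, a nucleolar chaperone of small RNPs, of −1.26 ± 0.20 and Eif6, which keeps the subunits apart, of −0.89 ± 0.17. Gnl3l, a relative of Gnl3, fell from 5.15 to 20.1 CPM in CTRL to 0.414 to 1.44 CPM with the ASO, which is 1 to 3 counts per library, too few for a fold to be given (edgeR adjusted p = 0.00045). The place of the counts differed between the directions, as all 11 genes that rose, but 2 of the 10 that fell, had at least 90% of counts in the last exon or beyond. Gnl3l had 0% of its counts there and Nmd3 7.24%. With only the most distal segment counted, 4 genes rose and 2 fell of 45, beside 5.76% higher and 9.13% lower of all genes.

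A further list held genes known to act on 5′ TOP mRNAs or on the transcription of ribosomal protein genes, called translation control genes below. Among its 20 tested genes, 2 rose and 8 fell beside 11.7 and 17.5% of all genes, and the median log2 fold change was −0.35. Eif4ebp2, a repressor of cap-dependent translation that mTORC1 switches off, rose by 1.14 ± 0.19 (log2, SE) and Mtor by 0.68 ± 0.20, the latter call being lost without CTRL replicate 4, without CTRL replicate 5 and without ASO replicate 5. Rptor, the mTORC1 subunit that binds substrates, had 30.4, 30.5, 38.2, 56.2 and 59.1 CPM in CTRL and 3.35, 5.48, 2.94, 5.38 and 1.87 CPM with the ASO (log2 fold change −3.46 ± 0.32 SE, edgeR adjusted p = 0.00011), but 0.659% of its counts lay in the last exon or beyond. Tsc1, a brake on mTORC1, had a log2 fold change of −2.07 ± 0.30 (SE), Mlst8, a core subunit of the mTOR complexes, of −1.37 ± 0.23 and Cnbp, a protein that binds 5′ TOP mRNAs, of −1.22 ± 0.23. All Cnbp counts lay in the last exon or beyond, against 78.1% for Tsc1 and 66.4% for Mlst8. With only the most distal segment counted, 2 genes rose and 2 fell of 12, beside the same 5.76 and 9.13% of all genes.

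Other measures moved along with the ribosomal protein genes. CPM summed over 8 skeletal muscle markers, 3 of them at 0, lay between 40280 and 79151 in CTRL. With the ASO the sum lay between 83984 and 129009, without overlap. Of the 4 tested markers, 2 rose (Ckm and Actn3), beside 11.7% of all genes. Acta1 and Pvalb did not pass (edgeR adjusted p = 0.058 and 0.19). The summed 9 macrophage markers lay at 294 to 1834 CPM in CTRL and at 79.1 to 617 CPM with the ASO. Of these markers, 2 of 7 tested fell (Mrc1 and C1qc), beside 17.5% of all genes, and Adgre1 and Cd163 were at 0. None of the 7 passed without CTRL replicate 3, 4 or 5, without ASO replicate 1, 3 or 5, with limma-voom or with the replicate block, and the median log2 fold change of these markers, −1.14, was −0.39 without CTRL replicate 3. Fibroblast markers lay at 245 to 485 CPM and 70.2 to 466 CPM, with 1 of 4 tested lower (Lum), beside the same 17.5%, and Dcn at 0. Endothelial (149 to 274 and 152 to 333 CPM), adipocyte (836 to 12772 and 707 to 3549 CPM), blood (884 to 1457 and 280.3 to 1701 CPM), Schwann (56.6 to 96.1 and 30.7 to 464 CPM) and satellite cell markers (15.0 to 21.6 and 11.2 to 29.0 CPM) overlapped between CTRL and ASO. Of their 17 tested genes, 0 passed the edgeR test, 0 had an unadjusted p under 0.05 and 0 were called by DESeq2. T and B cell markers summed to at most 3.70 CPM. With every library drawn down to the smallest total, 20 large and 12 small subunit genes rose, close to the 21 and 12 at full depth. The part of the muscle and macrophage markers in the changes was not tested.

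The counts of calls depend on how the libraries are scaled. With TMM scaling 40.2% of all calls were higher, against 22.9% with scaling by total counts, which moved the median of all genes to −0.20, and 51.1% with upper quartile scaling (median 0.06). In the large subunit 16 and 24 genes rose under these scalings, and in the small subunit 12 and 14. The medians of the large and small subunit genes stayed above that of all genes under both, at 0.56 and 0.59 with total counts and at 0.82 and 0.86 with the upper quartile.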

How the data were processed

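Gastrocnemius of 5 ASO and 5 CTRL DIO mice was profiled by stranded mRNA-seq (500 ng RNA, minimum RIN of 7). The authors used fastp for trimming and STAR for alignment (GRCm39), and counted read pairs with featureCounts (Gencode M25) on the last 500 bp of 3′UTRs. The deposited values are raw counts per transcript segment, without normalization, and the 4 other per-sample columns were not used here. Of 52423 segment identifiers, 62 were not found in GENCODE M39 (GRCm39) and hold 0.0197% of the counts.

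Segments were summed per gene and tested with edgeR 4.0.16 in R 4.3.3 (TMM, filterByExpr by group, quasi-likelihood F test, Benjamini-Hochberg over all 7819 genes tested, adjusted p-value under 0.05). The SE is the absolute log2 fold change divided by the square root of F. Levels are CPM for the TMM-scaled library size, with SDs over 5 libraries. The p-values measure the spread between these 10 libraries, and counting error is the limit only for low counts. Ratios within a library add 0.5 to each count and use exact permutation tests (scipy 1.17.1), where both sides averaged 10 or more counts per library. DESeq2 1.42.0, which the authors also used, and limma-voom 3.58.1 were alternatives, beside other scalings, filters, a replicate block, distal segments only, thinning and leaving out each library. Fits of single segments and of genes with 1 counted segment, segment ratios and the pair Rps4l and Rps4x were added after seeing the data. The edgeR fit of ASO against CTRL was tested on counts simulated from these libraries, where it called 88 of 193 genes changed 2-fold and 8 unchanged genes among 7633; the alternatives and ratios were not simulated.

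The genes and lists were chosen with earlier results of these data known. Named are the 8 largest changes past the threshold per direction and subunit, the 3 highest levels per kilobase per subunit, all paralog pairs, and up to 4 genes per direction from each other list by adjusted p-value. Further members are named to account for the genes, and a few genes are counted but not reported here by name or plotted singly. A ranking of genes by likeness to Rpl3l was void, as Rpl3l had no counts. miRNA and promoter sequences are from RefSeq (promoters on GRCm38.p6), and coordinates are 1-based.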

Additional observations from a re-analysis of the deposited data

Results flagged for a closer look

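In groups of 5, a single library can stand apart from the other 4. Of 156 groups tested with Dixon's criterion (critical value 0.71), 13 had such a library. Chance alone gives about 1 in 20 for a single group. The groups reuse the same libraries and are not independent, so the 13 cannot be set against that share. For Rpl15, replicate 3 was low in both groups, at 71.6 CPM in CTRL against 96.4 to 105 in the others and at 68.0 CPM with the ASO against 90.6 to 99.7. ASO replicate 2 was low for Rpl27a (582 CPM, others 665 to 688), Rpl39 (182 CPM, others 236 to 254) and Rps29 (549.6 CPM, others 775 to 844). Rps9 was high in ASO replicate 3 (8.39 CPM, others 5.75 to 6.32).

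Among ratios, that of Rpl22l1 to Rpl22 was high in CTRL replicate 5 (log2 0.69, others 0.35 to 0.43). The distal to proximal segment ratio was high in ASO replicate 3 for Rpl13a (log2 −3.98, others −5.09 to −4.94) and in ASO replicate 4 for Rpl27a (log2 −2.79, others −3.40 to −3.26).

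Outside the ribosomal protein genes, Nap1l1 was high in ASO replicate 2 (193 CPM, others 154 to 163) and Noc2l in CTRL replicate 4 (77.3 CPM, others 54.0 to 57.6). Nmd3 was low in ASO replicate 3 (2.94 CPM, others 13.1 to 13.4) and Cnbp in CTRL replicate 3 (916 CPM, others 1220 to 1298).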

How the results depend on the processing

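Of the 33 ribosomal protein genes that rose, 29 kept their call in each fit without 1 library and 22 in each of the 23 alternative fits that gave a value. Counts moved most where fewer segments or genes were fitted. With only the most distal segment, 10 large subunit genes rose and 0 fell, 6 small subunit genes rose (median log2 fold change 0.42), other 5′ TOP genes gave 3 higher and 0 lower, biogenesis genes 4 and 2, and translation control genes 2 lower. The difference (ASO less CTRL) in the large to small subunit ratio of summed counts turned to 0.0321, and that in the share of all counts on ribosomal protein members was 0.276 percentage points, against 0.278 without the 3 highest genes of each subunit. With only genes of 1 counted segment, the counts were 12 large and 7 small subunit genes higher (median of the small 0.50), 4 and 0 other 5′ TOP genes, 6 and 2 biogenesis genes, and 1 and 1 translation control genes. With total count scaling, 1 translation control gene rose.

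Leaving out each library gave 0 to 1 large subunit genes lower, 0 to 1 other 5′ TOP genes lower and 1 to 3 translation control genes higher. The differences ranged from −0.078 to 0.049 for the Rpl22l1 to Rpl22 log2 ratio, from −0.24 to 0.22 for Rps4l to Rps4x and from −0.22 to 0.016 for the segments of Rpl27a. Log2 fold changes ranged from −0.18 to 0.026 for Rpl15, from −0.088 to 0.12 for Rpl5, from −0.15 to 0.20 for Rpl7l1 and from −0.047 to 0.41 for Rps4l.

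Turned signs of log2 fold changes were as follows, none past the threshold. With the most distal segment they were −0.059 for Rpl27a, −0.80 for Rpl31, −0.69 for Rps3, −0.22 for Rpl7l1, −0.035 for Rps4l and −0.11 for Rps4x. Rpl31 and Rps3, called higher on their summed counts, thus did not rise on their distal segments. Rps4x had −0.036 with total counts and −0.077 among genes with 1 counted segment. Rpl7l1 had −0.0088 with limma-voom, −0.15 with total counts, −0.012 with at least 10 counts per library and −0.055 after thinning. Rpl5 had 0.032 with DESeq2, 0.026 with RLE, 0.075 with upper quartile scaling, 0.012 with genes of at least 1 count and 0.030 without the 20 highest genes. The cause of these changes was not tested.

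The labels state no pairing of samples by replicate number. Libraries with the same number correlated at −0.43 to 0.16 in their deviations from the group means, and 1 of 10 libraries correlated best with its own number. These values show no pairing, but so few libraries cannot exclude one. With the replicate number as a block, 662 of all genes rose and 1175 fell, 17 large subunit genes rose and 1 fell, 12 small subunit genes rose, 5 other 5′ TOP genes and 1 translation control gene rose, and Rpl5 had 0.0035. For the ratios, the block left Rpl7l1 to Rpl7 at −1.08, the segments of Rps3 at −1.25 and those of Rpsa at 0.64, each with p = 0.0625 by exact permutation of signs, the smallest that 5 pairs allow, and those of Rpl31 at −1.64 with p = 0.125 by exact permutation. With 1606909 to 2632560 counts per library, 14 ribosomal protein genes with counts held too few to be tested. Some had few bases of their own, as Rpl32 (0 bp), Rpl10a (5 bp) and Rps25 (9 bp), whereas Rps20 had 500 bp. The part of depth and of countable bases was not tested.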

Other observations

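Ribosomal protein genes with too few counts for the test had mean levels of 0.0421 to 4.16 CPM. They include Rpl10l, a testis form of Rpl10, with counts only in CTRL replicates 4 and 5 (0.59 and 3.90 CPM), and Rps6, with 6.55, 3.70, 5.39, 2.34 and 6.13 CPM in CTRL and 3.83, 3.37, 1.68, 5.80 and 2.81 CPM with the ASO. Their ranges overlapped, and no fold is given at so few counts.

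In 3 further genes with 2 countable segments, the ratio of distal to proximal counts did not differ beyond the spread between libraries. The difference (log2, ASO less CTRL) was 0.31 for Rpl13a (exact permutation p = 0.333), −0.11 for Rpl27a (exact permutation p = 0.532) and 0.17 for Rpl37a (exact permutation p = 0.437). In Rpl37a the distal segment held 39 counts over the 5 CTRL and 87 over the 5 ASO libraries, so a small shift could not be detected there.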
